A study of Mus musculus with 3 samples.

Results

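Hormones reach the osteoblast, the bone-forming cell, through receptors at its surface and in its nucleus, and 10 mouse genes for such receptors and their partner proteins were followed here. They were Pth1r, Calcrl, Ramp1, Ramp2, Ramp3, Lepr, Ghr, Vdr, Nr3c1 and Esr1. The members were all probe sets of the deposited value table whose annotation gave 1 of these symbols and no other, which came to 27 of 34945 probe sets with a single symbol and 10 of 18193 genes. RNA came from MC3T3-E1, a mouse preosteoblast line established from C57BL/6 calvaria, the flat bone of the skull, and was read on Affymetrix GeneChip Mouse Genome arrays. Cells had spent 3 days at 37 °C in their medium, of which there were 3. The normal one was MEM α holding 10% serum from fetal calves. Osteogenic medium held the same base and serum plus 150 µM ascorbic acid 2-phosphate, a stable vitamin C, and 10 mM beta-glycerophosphate, a phosphate donor. In the last, 0.6% dimethyl sulfoxide (DMSO), a solvent, was added to osteogenic medium, and the labels state that staining for calcium with alizarin red S was stronger there. All cells were of 1 line, and no hormone was added beyond what serum holds, as far as the labels say.

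There was 1 array per medium, so no comparison has a test, a p-value or a replicate error, and precision is limited by that number of arrays. Values are on a log2 scale, on which a difference of 1 is a 2-fold change, and a gene is said to have risen or fallen only where it reached 2-fold. The median of all values on the arrays, 3.54, served as a floor, to which anything lower was lifted before a difference was taken. The probe set of highest mean stands for its gene, and the other probe sets are given beside it. In 5180 genes with a pair of probe sets, the log2 differences of the pair were compared. Their disagreement had an SD of 0.18 for osteogenic against normal medium, 0.15 for DMSO within osteogenic medium and 0.22 for DMSO against normal medium. Per single probe set this came to an SD of 0.13, 0.11 and 0.16 in the same order, called the probe set scatter here. That spread covers probe noise and transcript forms but not culture to culture variation. The arrays correlated with each other at Pearson r between 0.996 and 0.998 over 45037 probe sets. The 18 spike-in probe sets for hybridisation had a median difference of 0.10 for osteogenic against normal medium, with a range of 0.00 to 0.29. For DMSO within osteogenic medium the median was -0.03, with a range of -0.10 to 0.02. The array of osteogenic medium without DMSO enters both main comparisons, with opposite signs.

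As background, Pth1r encodes the receptor for parathyroid hormone, which acts through cyclic AMP and drives both bone formation and bone loss. Calcrl encodes the calcitonin receptor-like receptor, which needs a small partner, a receptor activity-modifying protein (RAMP), to reach the surface and to bind a ligand. With the product of Ramp1 it binds calcitonin gene-related peptide (CGRP), and with those of Ramp2 or Ramp3 it binds adrenomedullin. Lepr and Ghr encode the leptin and growth hormone receptors, which signal through JAK kinases and STAT factors. Vdr, Nr3c1 and Esr1 encode nuclear receptors for vitamin D, glucocorticoids and estrogen, which act as transcription factors.

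In osteogenic medium Lepr, Ramp1 and Pth1r rose, 3 of the 9 receptor genes measured above the floor, and none of the 9 fell. With all probe sets of a gene averaged, Pth1r alone rose, so 3 becomes 1. Over all genes measured in this comparison, 0.473% of 11417 rose at least 2-fold and 0.184% fell. The receptor genes were chosen with earlier results of these data known, so setting their counts beside such shares is a description only. Lepr rose 4.0-fold, Ramp1 2.36-fold and Pth1r 2.24-fold. Ghr was 1.69-fold lower, which did not reach 2-fold. DMSO within osteogenic medium moved none of the 9 by 2-fold, beside 0.0525% of 11423 genes that rose and 0.552% that fell. Ramp1 came nearest, at 1.98-fold higher, and Vdr was 1.61-fold lower. Between osteogenic medium with DMSO and normal medium, which sums both steps, the same genes Ramp1, Lepr and Pth1r rose and none fell, beside 0.604% of 11422 genes that rose and 1.34% that fell. At a lower mark of 1.5-fold, Ghr is added as lower in osteogenic medium, where 1.75% of genes were that much higher and 1.61% that much lower. With DMSO the same mark takes in Ramp1 as higher and Vdr as lower, beside 0.35% and 2.12% of genes, and over both steps it adds Vdr and Ghr as lower to the 3 that rose, beside 4.19% of genes lower and 2.59% higher. Fewer cells of a type and less RNA per cell cannot be told apart in such bulk RNA.

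**Figure D1:**
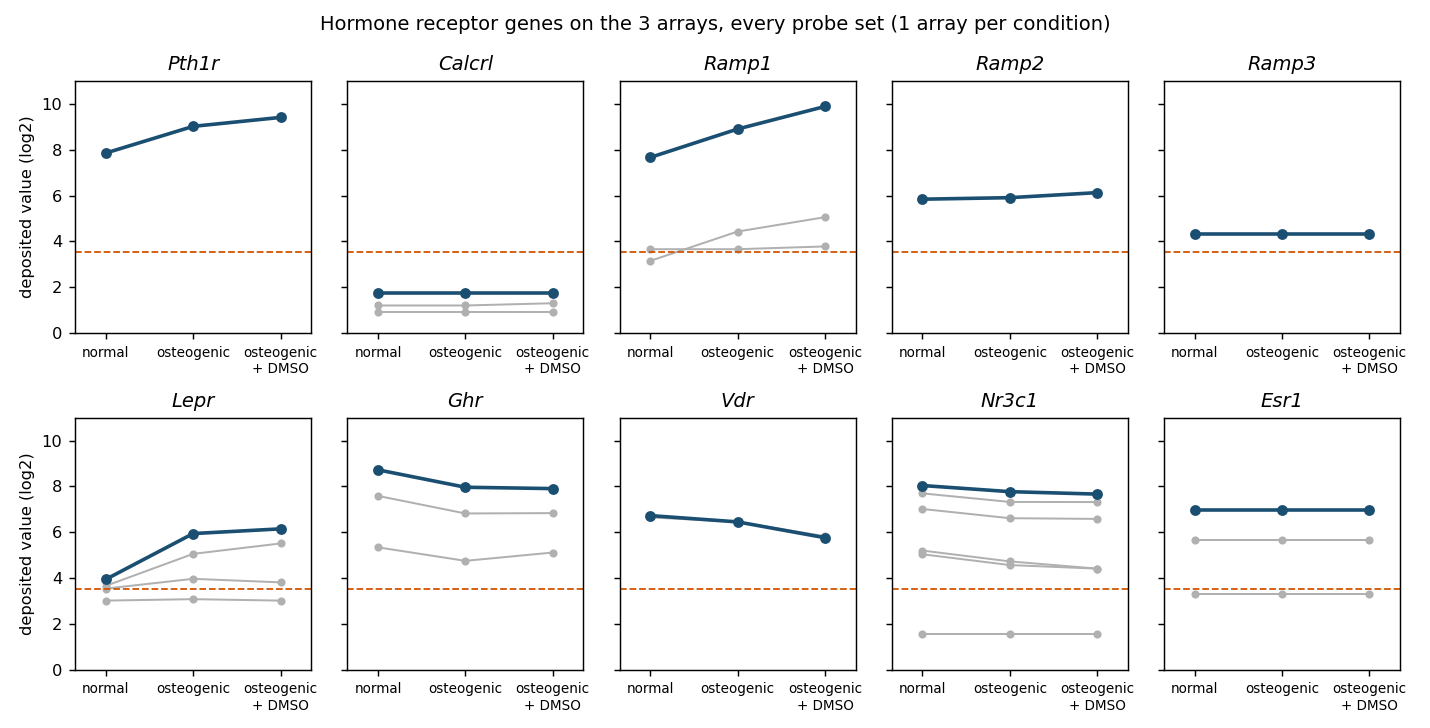
Deposited log2 value (y axis) of every probe set of the 10 genes on the 3 arrays (x axis, 1 array per medium). The dark line is the probe set that represents the gene, grey lines are its other probe sets (the second of Vdr lies almost under the first), and the dashed line is the floor at 3.54. Pth1r, Ramp1 and Lepr go up from normal to osteogenic medium, Ghr goes down, Vdr is lowest with DMSO, and Esr1, Ramp3 and Calcrl are flat.

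The 250 bases upstream of the outermost annotated start are printed for Ramp1 and Pth1r, which rose in osteogenic medium and were higher again with DMSO, for Vdr, which was lower with DMSO, and for Ghr, which was lower in osteogenic medium. Lepr rose too, but neither of its listed windows lies at its outermost start, so none is printed. The sequences are RefSeq's for build GRCm38.p6, 5′ to 3′ on the gene's strand, and the capitals mark GC boxes (GGGCGG on either strand). They lie at chr1:91179572-91179821 (plus strand) for Ramp1, chr9:110747146-110747395 (minus strand) for Pth1r, chr15:97908297-97908546 (minus strand) for Vdr and chr15:3583353-3583602 (minus strand) for Ghr.
Ramp1: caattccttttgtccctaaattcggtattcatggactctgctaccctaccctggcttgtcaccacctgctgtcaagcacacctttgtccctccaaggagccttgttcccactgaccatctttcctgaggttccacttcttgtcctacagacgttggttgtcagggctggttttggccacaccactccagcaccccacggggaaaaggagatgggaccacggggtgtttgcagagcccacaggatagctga
Pth1r: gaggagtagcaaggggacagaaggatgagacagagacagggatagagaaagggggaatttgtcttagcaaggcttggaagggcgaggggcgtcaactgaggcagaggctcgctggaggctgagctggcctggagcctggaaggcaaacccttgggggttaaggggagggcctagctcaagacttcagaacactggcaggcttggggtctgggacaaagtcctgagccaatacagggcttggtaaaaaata
Vdr: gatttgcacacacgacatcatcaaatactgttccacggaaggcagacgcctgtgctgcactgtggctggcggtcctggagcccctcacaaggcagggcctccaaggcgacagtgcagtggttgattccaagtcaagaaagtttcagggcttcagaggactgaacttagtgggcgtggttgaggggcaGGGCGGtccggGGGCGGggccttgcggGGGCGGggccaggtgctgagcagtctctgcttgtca
Ghr: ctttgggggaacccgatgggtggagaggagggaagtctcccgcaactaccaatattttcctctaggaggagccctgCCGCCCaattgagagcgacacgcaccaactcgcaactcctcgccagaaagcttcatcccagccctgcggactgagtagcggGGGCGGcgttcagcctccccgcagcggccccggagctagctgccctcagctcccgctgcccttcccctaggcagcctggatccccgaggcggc
The window of Vdr holds 3 GC boxes, that of Ghr holds 2, and those of Ramp1 and of this start of Pth1r hold none. A GC box was found in 32.7% of 32851 windows of that length before annotated starts. RefSeq lists further starts of Pth1r, and the windows before them at chr9:110743687-110743936 and chr9:110742611-110742860 (minus strand) hold 1 and 4 GC boxes. The windows of Lepr hold 0 and 1. Windows of 8 of the 10 genes were searched, 13 in all, and 7 of the 13 hold a GC box. No window of Nr3c1 or Ramp2 was searched, so the counts over the 13 leave these genes out. None of the 13 holds TGTGGT, the letters of a RUNX site, which 14.0% of all windows hold, or AGGTCA, the half-site of many nuclear receptors, likewise at 14.0%. TGACGTCA, the cyclic AMP response element, was in none of the 13 and in 1.55% of all windows. TGANTCA, a loose form of the AP-1 site with any base at N, was in 1 window of Ghr, as TGAATCA, and in 6.75% of all. Both strands were searched and no motif overlaps another in these windows. Which start the cells used was not measured, and a match of letters is not evidence of a bound site.

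Pth1r, the parathyroid hormone receptor, is read by 1 probe set (1417092_at). Its log2 value was 7.86 in normal medium, 9.02 in osteogenic medium and 9.41 in osteogenic medium with DMSO. The value was lowest in normal medium and highest with DMSO. The first step, 1.17, was the 34th highest of 11417 genes and larger than the probe set scatter of 0.13. The second step, 0.39, was the 131st highest of 11423 genes, with 1.14% of genes above it. From normal medium to osteogenic medium with DMSO, Pth1r rose by 1.56, or 2.94-fold. Since the gene has no second probe set, nothing on these arrays repeats the measurement.

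The other genes of parathyroid hormone and cyclic AMP signalling differed little between normal and osteogenic medium. Of 31 measured, none rose or fell 2-fold, the median difference was 0.00, and single differences ran from -0.35 to 0.24. Those furthest from 0 were Sik2 (-0.35), a kinase that parathyroid hormone signalling restrains in bone cells, Gnaq (-0.30), a G protein subunit, Prkar2b (-0.25), a regulatory subunit of protein kinase A, and Slc9a3r1 (0.24), a scaffold that binds the receptor. Gnas, the G protein subunit that couples the receptor to cyclic AMP, was at 11.77, 11.77 and 11.78 on the 3 arrays. With DMSO, 1 of 31 fell, by a bound: Rgs2, a regulator of G protein signalling that cyclic AMP induces in osteoblasts, went from 4.57 to below the floor, at least 2.04-fold lower, and another of its probe sets also went below the floor, with a bound of -0.73. Rgs2 was named after its value was seen. The phosphodiesterase Pde4b, which breaks down cyclic AMP, differed by -0.64, the kinase Sik1, a cyclic AMP target, by -0.60 and the phosphodiesterase Pde4d by -0.32. Another probe set of Pde4b was at 4.92, 4.54 and 3.63, which is -0.91 with DMSO and -1.29 from normal medium to osteogenic medium with DMSO. Pth2r, the related receptor, was below the floor on all 3 arrays.

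The RAMP genes went different ways. Ramp1 was at 7.67 in normal medium, 8.90 in osteogenic medium and 9.89 with DMSO in its brightest probe set (1417481_at). Each step was upward, by 1.24 (the 28th highest of 11417 genes) and by 0.99 (the 7th highest of 11423). With DMSO against normal medium the rise came to 2.22, or 4.67-fold, the 10th highest of 11422. Among 11203 genes that passed the floor on every array, only 2 others were higher by at least as much as Ramp1 in both steps. The second probe set (1431413_at) was at 3.15, 4.43 and 5.06, and so went from below the floor upward in the same order, by at least 0.89 and then by 0.63. The last (1447474_at) was at 3.66, 3.66 and 3.78, just above the floor, and its differences were 0.00 and 0.12. The probe sets thus repeat the direction in 1 of 2 cases at the first step, and the dim last one shows no difference there. The 2-fold mark in osteogenic medium was missed with all probe sets averaged (0.84) and with the second probe set in place of the first (0.89).

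Ramp2 is read by 1 probe set of its own (1418187_at), at 5.84, 5.91 and 6.13. It differed by 0.07 and 0.22, and by 0.29 from normal medium to osteogenic medium with DMSO. The first difference is smaller than the probe set scatter of 0.13, and the second is larger than the 0.11 for DMSO. Ramp3 (1420401_a_at) had the same deposited value, 4.34, on all 3 arrays. Exactly that value also stood at 191, 230 and 244 other probe sets of the same arrays. Equal values on all 3 arrays occurred in 16.9% of 11462 genes above the floor on any array, and in 2 of the 9 receptor genes, Ramp3 and Esr1.

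Calcrl, the receptor that the RAMPs accompany, was not above the floor in any of its 3 probe sets on any array. The brightest (1418489_a_at) was at 1.75 on all 3 arrays, and the others were at 1.20 to 1.30 and at 0.93. Calcr, the calcitonin receptor, which RAMPs also modify, was below the floor as well, at 1.95 on all arrays. The rise of Ramp1 was therefore measured in cells in which the arrays read neither receptor above the floor. Dim probe sets do not show that a transcript is absent. Calcrl and Ramp2 are known from endothelial cells, and 10 of the 14 endothelial markers, Pecam1 and Cdh5 among them, were below the floor on all arrays, while the other 4, Kdr, Esam, Flt1 and Sox18, differed by less than 2-fold. The summed linear level of the 14 was 258.5, 224.0 and 226.6 in the order normal, osteogenic and osteogenic with DMSO.

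Of the adrenomedullin, CGRP and calcitonin list, 7 genes were measured. None changed 2-fold in osteogenic medium (median -0.04), where Calcb, which encodes a form of CGRP, differed by -0.33 and Pam, the enzyme that amidates such peptides, by -0.23. With DMSO the median was -0.10, none of the 7 was above 0 and 1 fell. This was Ackr3, a scavenging receptor of the chemokine Cxcl12 that also takes up adrenomedullin, which went from 7.09 and 7.06 without DMSO to 5.69 with it, 2.58-fold lower. Mme, the neprilysin that degrades peptides, differed by 0.12 and -0.37. Adm2, a ligand of Calcrl, differed by -0.13 and 0.00, and Adm, which encodes adrenomedullin, was below the floor on all arrays.

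**Figure D2:**
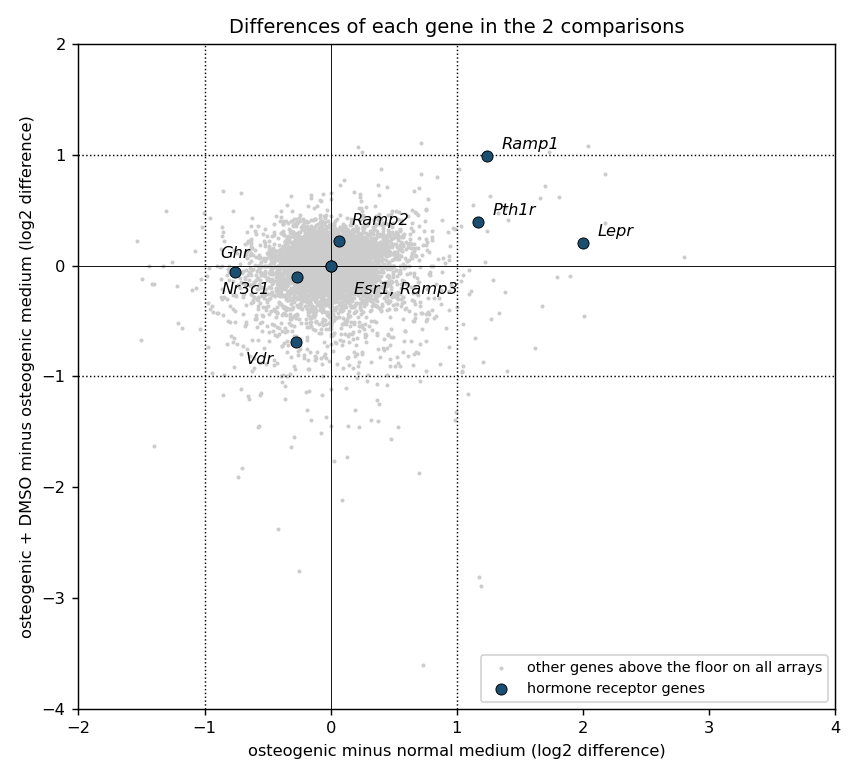
Each point is a gene above the floor on all 3 arrays, placed by its log2 difference in osteogenic against normal medium (x axis) and in osteogenic medium with against without DMSO (y axis), with the 2-fold marks dotted. The dark points are the 9 receptor genes measured. Ramp1 is high on both axes (1.24 and 0.99), Lepr and Pth1r lie to the right, Vdr lies low (-0.69), and Esr1 and Ramp3 share the point at 0. The osteogenic array enters both axes with opposite signs.

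Lepr, the leptin receptor, marks stromal cells of bone marrow and is made in several forms that differ at their ends. Its brightest probe set (1456156_at) was at 3.94 in normal medium, 5.94 in osteogenic medium and 6.15 with DMSO. The rise of 2.00 was the 7th highest of 11417 genes, from a value close above the floor. The second probe set (1425644_at) was at 3.66, 5.06 and 5.51, a rise of 1.40 and a further difference of 0.45. The third (1425875_a_at) was at 3.54, 3.97 and 3.81, with differences of at least 0.43 and of -0.16, and the fourth (1425873_a_at) stayed below the floor, between 3.02 and 3.08. The brightest and the second probe set thus rose in osteogenic medium, the third did not reach 2-fold, and the fourth was not measured. The value of the second in normal medium lay close above the floor and was shared with 463 other probe sets. The form each probe set reads was not worked out here. With all probe sets averaged, the difference in osteogenic medium was 0.97, and with an offset of 32 added to linear values, which damps dim genes, it was 0.98, so that the 2-fold mark was missed in both. With the floor at the 60th percentile it was at least 1.47. With DMSO the difference of 0.21 was the 780th highest of 11423 genes. Leprot, a neighbouring gene whose product regulates leptin receptor trafficking, was at 8.95 on all 3 arrays.

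Other markers of marrow stroma, the cells Lepr is used to mark, did not rise with it. Of 7 measured stromal and adipocyte markers none rose or fell 2-fold in osteogenic medium (median 0.00). Cxcl12, the chemokine of those cells, was at 9.40, 9.43 and 9.11, and Vcam1, an adhesion molecule, at 9.33, 8.89 and 8.26. With DMSO all 7 were below 0, with a median of -0.27. The summed linear level of the 12 markers with a probe set was 3124, 2493 and 2013. It leans on the brightest, Ptx3, at 10.47, 9.85 and 9.66, and on Vcam1. Of the 7 measured in osteogenic medium, 3 were above 0 and 2 below. Adipoq, Pparg, Fabp4 and Lpl, genes of fat cells, were below the floor on all arrays, while Cebpa, a transcription factor of fat cells, was above it at 6.15, 6.15 and 6.06.

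Ghr, the growth hormone receptor, was lower in osteogenic medium in all of its 3 probe sets. The brightest (1417962_s_at) was at 8.73, 7.97 and 7.91, the second (1451501_a_at) at 7.59, 6.82 and 6.84, and the third (1451871_a_at) at 5.34, 4.75 and 5.12. Normal medium had the highest value in each. The first step was -0.76, -0.77 and -0.59, short of 2-fold in each, and 0.674% of 11417 genes had a difference lower than the first of these. With DMSO the differences were -0.06, 0.02 and 0.36, so the probe sets went both ways and the dimmest one moved back up by 0.36.

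The list of leptin and growth hormone signalling holds ligands, related receptors and genes downstream. By the probe set that stands for each gene, none of 28 measured changed 2-fold in osteogenic medium, the median was 0.00 and the range -0.77 to 0.89. Another probe set of Lifr, the leukemia inhibitory factor receptor, was at 5.57, 6.76 and 7.40, a rise of 1.19 and a further difference of 0.63, while the brightest of Lifr was at 8.48, 8.54 and 8.53 and the last one differed by 0.00 and -0.10. Lifr was named after its values were seen. Socs2, a feedback inhibitor that growth hormone induces, was at 9.01, 8.24 and 7.97, and its other bright probe sets differed by -0.82 and -0.55 at the first step. Igf1, the growth factor that growth hormone raises, was at 9.95, 9.18 and 8.53. Beside these differences of -0.77 for Socs2 and -0.76 for Igf1, other feedback inhibitors went both ways in osteogenic medium. Cish was at 0.04, Socs1 at 0.52 and Socs5 at 0.13, while Socs3 was at -0.11, with other probe sets at -0.34 and -0.03. Irs1, an adaptor of insulin and IGF receptors, was higher by 0.66 and Il6ra, a subunit of the interleukin-6 receptor, by 0.89, though the other probe set of Il6ra was at 0.35. With DMSO, none of 29 rose or fell and the median was 0.00. Socs3, a feedback inhibitor of leptin receptor signalling, was lower by 0.78 and by 0.68 and 0.80 in its other probe sets, Osmr, the oncostatin M receptor, differed by -0.69 and -0.15 in its 2 bright probe sets, and Igf1 by -0.66. The kinase Jak2 was at 6.87, 6.92 and 7.12 and the factor Stat3 at 7.94, 8.11 and 7.96. From normal medium to osteogenic medium with DMSO, 2 of 29 fell, Igf1 by 1.42 and Socs2 by 1.03. The leptin gene Lep was below the floor on all arrays.

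Vdr, the vitamin D receptor, was lower with DMSO in both of its probe sets. The first (1418175_at) was at 6.73, 6.45 and 5.76, and the second (1418176_at) at 6.65, 6.45 and 5.83. The array with DMSO had the lowest value in each, by differences of -0.69 and -0.62 from osteogenic medium, and 1.52% of 11423 genes had a difference lower than the first of these. Osteogenic against normal medium gave -0.27 and -0.20. Over both steps the differences were -0.97 and -0.82, which stop short of 2-fold. The values of both probe sets in osteogenic medium were identical to every deposited digit, and each shared its value with 38 other probe sets of that array, the other of Vdr included.

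Of the vitamin D system, 10 genes were measured and 9 were below the floor on all arrays. The latter held Cyp24a1, which breaks down active vitamin D and is a classic target of its receptor, Cyp27b1, which makes the active hormone, and Tnfsf11, the osteoclast factor RANKL. In osteogenic medium 1 of 10 rose, Tnfrsf11b, which encodes the RANKL decoy osteoprotegerin, at 5.82, 8.62 and 8.70, and the median was -0.02. With DMSO none changed 2-fold and the median was 0.03. The partner receptor Rxra was at 6.97, 6.93 and 6.97, and Rxrb at 7.93 on all arrays. The Wnt coreceptor Lrp5 differed by -0.25 with DMSO and the coactivator Ncoa1 by 0.10.

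Nr3c1, the glucocorticoid receptor, has 6 probe sets, of which 5 were above the floor on all arrays. Its brightest (1460303_at) was at 8.04, 7.77 and 7.67. All 5 were lower in osteogenic than in normal medium, by differences from -0.47 to -0.27, and all 5 were lower again with DMSO, from -0.32 to -0.0063. None of these differences reached 2-fold, and the brightest probe set showed the smallest of the 5 in the first step. The remaining probe set (1431378_at) stood at 1.56 on all arrays.

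Glucocorticoid-responsive genes had a median of 0.07 in osteogenic medium over 17 measured, with none changed 2-fold. Mt2, a metallothionein, differed by -0.68, Errfi1, a feedback inhibitor of the EGF receptor, by 0.52, Tsc22d3, the glucocorticoid-induced leucine zipper, by -0.43, and Hsd11b1 by 0.37. With DMSO the median was -0.22 and 11 of 17 were below 0. The single fall was that of Hsd11b1, the enzyme that makes active glucocorticoid inside the cell, which was at 5.76 and 6.13 without DMSO and at 4.92 with it, 2.31-fold lower. Sgk1, a kinase that glucocorticoids induce, differed by -0.78, Cebpd, a transcription factor, by -0.47, and Dusp1, a phosphatase, by -0.44. Fkbp5, a chaperone partner of the receptor that glucocorticoids also induce, went the other way, at 6.89, 7.12 and 7.41. Hsd11b2, the inactivating enzyme, and Nr3c2, the mineralocorticoid receptor, were below the floor on all arrays.

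Esr1, the estrogen receptor alpha, gave the same deposited value on all 3 arrays in each of its 3 probe sets. These values were 6.96 (1460591_at), 5.65 (1435663_at) and 3.32 (1421244_at), the last below the floor. Between 15 and 20 other probe sets of the same arrays held exactly the value of the first. No difference was thus measured for Esr1, and equal values across arrays do not show that the level stayed equal. Esr2, the other estrogen receptor, and Pgr, the progesterone receptor, were below the floor on all arrays in each probe set. Greb1, an estrogen target, has 4 probe sets, of which 2 passed the floor in osteogenic medium alone, at 3.97 and 3.61. Of the estrogen list, 15 genes were measured in osteogenic medium and 14 with DMSO, and none changed 2-fold (medians 0.00 and 0.01). Igfbp4, a binding protein of insulin-like growth factors that estrogen regulates, was at 11.66, 11.05 and 10.74, with its other 5 probe sets at -0.99 to -0.54 in the first step. Ccnd1, which encodes cyclin D1, was higher by 0.67 in osteogenic medium and differed by -0.44 with DMSO.

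**Figure D3:**
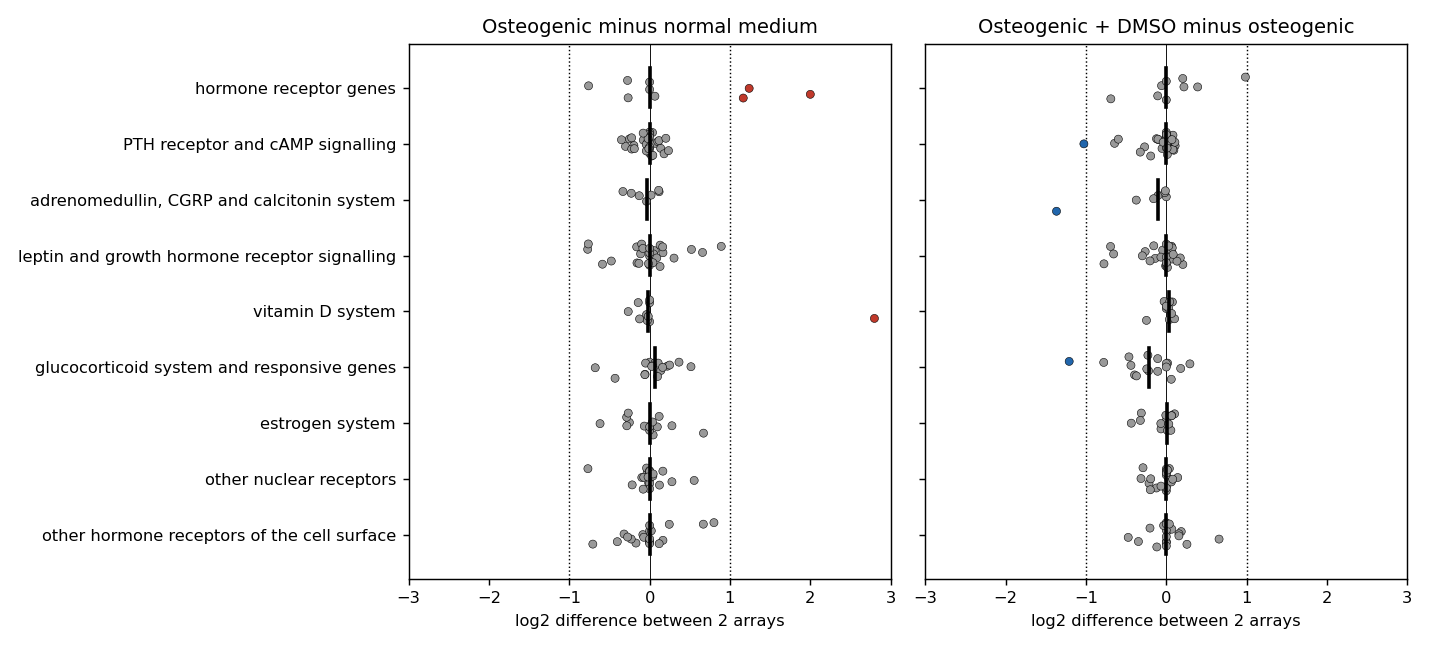
Log2 difference (x axis) of each gene measured above the floor on at least 1 of the 2 compared arrays, for the receptor genes and 8 lists of related genes (y axis), in osteogenic against normal medium (left) and with against without DMSO (right). Red points rose and blue points fell at least 2-fold, and the black bars are medians. The receptor genes hold 3 red points on the left, Pth1r, Ramp1 and Lepr, while the other lists hold 1, Tnfrsf11b.

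The 10 genes were chosen with earlier results of these data known, so a comparison with other receptors is a description. Of 21 other nuclear receptors above the floor, none changed 2-fold in either main comparison, and both medians were 0.00. Thra, a thyroid hormone receptor, had the lowest value in osteogenic medium, -0.77, which its other bright probe sets did not share (-0.03 and 0.00), and Nr6a1, an orphan receptor, the highest, 0.56, with another probe set at 0.11. With DMSO the differences ran from -0.32 (Nr2f2, an orphan receptor) to 0.14 (Thra, whose other bright probe sets were at -0.13 and -0.02). Of 20 other hormone receptors of the cell surface, none changed 2-fold in either main comparison, and the medians were 0.00 in both, as they were over the 9 receptor genes and over all genes. Sstr2, a somatostatin receptor, was at 4.56, 5.36 and 5.61 and reached 2.08-fold from normal medium to osteogenic medium with DMSO, the single rise of that list there. Ptger4, a prostaglandin E2 receptor, differed by 0.67 and then by -0.47. Ptgfr, the prostaglandin F receptor, was at 8.37, 7.66 and 8.32, lowest in osteogenic medium without DMSO, and its other 4 probe sets had the same signs, at -0.69 to -0.31 and 0.31 to 0.81. The insulin receptor gene Insr was at 6.29, 6.12 and 6.13. Of these 45 surface receptors with a probe set, 25 were below the floor on all arrays.

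**Figure D4:**
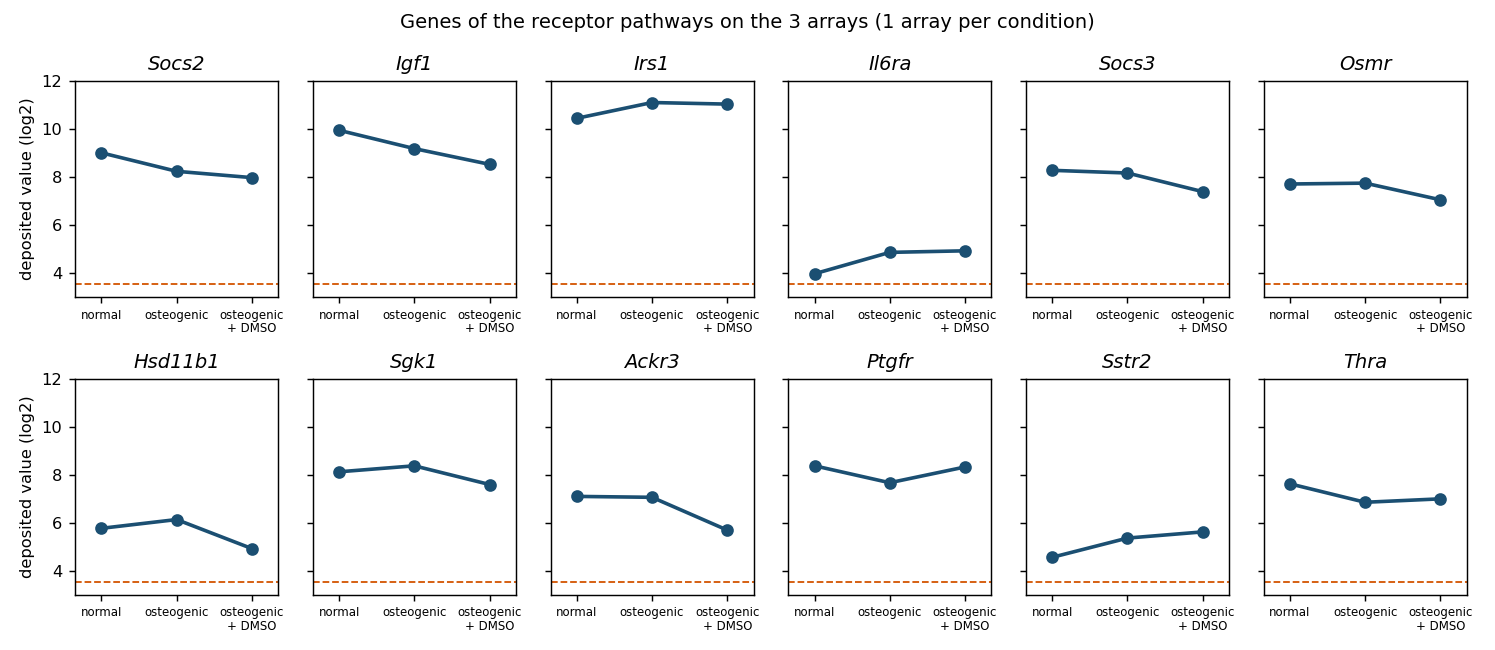
Deposited log2 value (y axis, starting at 3) of 12 genes of the receptor pathways on the 3 arrays (x axis, 1 array per medium), with the floor dashed. Socs2 and Igf1 are highest in normal medium, Socs3, Osmr, Hsd11b1, Sgk1 and Ackr3 are lowest with DMSO, and Ptgfr and Thra are lowest in osteogenic medium without DMSO.

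Genes with the most similar pair of differences were listed for the 5 members that differed by at least 0.5 in either main comparison, by the distance between the pairs over 10787 genes. With 3 arrays such likeness is a weak description, and the distances share the osteogenic array. Closest to Pth1r were Ptch1, the Hedgehog receptor (1.24 and 0.31), Padi2, a protein deiminase (1.04 and 0.36), and Bambi, a decoy receptor of TGF-beta signals (1.13 and 0.55). Closest to Lepr were Ibsp, which encodes bone sialoprotein (2.18 and 0.38), Prss35 (1.90 and -0.09) and C1qtnf3 (1.80 and -0.10). Near Ramp1 few genes lay, the closest being Slc16a4, a transporter (1.02 and 0.87), Tubb3, a tubulin (1.27 and 0.63), and Me2, the mitochondrial malic enzyme (0.84 and 0.80), at distances of 0.25 to 0.44. Vdr had close neighbours within 0.029, Irx1 (-0.26 and -0.69), Cx3cl1 (-0.29 and -0.68) and Zbtb20 (-0.25 and -0.68). Those of Ghr were Jdp2 (-0.75 and -0.04), Aars (-0.80 and -0.06), a tRNA synthetase, and Asns (-0.80 and -0.03), the asparagine synthetase.

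Of the osteoblast markers checked against the label of the line, 9 of the 10 with a probe set were above the floor in normal medium and all 10 were in osteogenic medium with and without DMSO. In osteogenic medium 5 of the 10 rose, with a median of 1.02, among them Alpl, the alkaline phosphatase (1.70), Ibsp (2.18), Ifitm5 (2.04) and Dmp1 (1.17). With DMSO the median was 0.18, 1 rose (Ifitm5, 1.08) and 1 fell (Dmp1, -2.81), while Sp7, the factor osterix, was at 6.42, 7.30 and 7.72. Their summed linear level was 23640, 26070 and 27320, and its part in the differences of Pth1r, Ramp1 and Lepr was not tested. That sum rests mostly on the brightest markers, Col1a2, Sparc and Col1a1. From normal medium to osteogenic medium with DMSO these differed by only 0.035, 0.118 and 0.22. Of 14 macrophage and osteoclast markers, 9 were below the floor on all arrays, Ptprc and Adgre1 among them, and 5 were above it, with medians of -0.25 in osteogenic medium and -0.04 with DMSO. Their summed level was 834.3, 861.0 and 783.8, and it rests mostly on the brightest, Ctsk, at 9.35, 9.46 and 9.29.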

How the data were processed

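RNA of 3 MC3T3-E1 cultures, 1 per medium, was read on Affymetrix arrays. Per the labels' protocols, total RNA with an integrity number over 9.5 was used, and 500 ng of it was turned into labelled cRNA with a 3' IVT kit, which copies from the poly(A) tail. The deposited log2 values run from 0.652 to 13.4, and the log2 scale is inferred from that range. For the authors' summarisation and normalization, nothing is stated (not given in the sources used here). Array medians were 3.54 to 3.57, so a change in total RNA per cell would not be seen, and 37.4% of 45037 probe sets had equal values on all 3 arrays.

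Of these probe sets, 34945 had 1 symbol in the platform annotation, 932 had several and 9160 were unnamed here. For each of 18193 genes the probe set of highest mean was used. Values below the floor, the 50th percentile (3.54), were raised to it, and a difference with 1 array under the floor is a bound. Changes of at least 2-fold were counted. Samples were grouped by their descriptions, and no test was possible.

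The members and the 12 gene lists were chosen with earlier results of these data known. Named are all members, up to 4 genes per list and main comparison with the largest differences above the floor, the 3 genes most like each member that differed by 0.5, and some others chosen after their values were seen. Alternatives were the probe set rule, the floor, quantile and cyclic loess normalization, median centring, an offset of 32 and a 1.5-fold threshold. Software was R 4.3.3 (limma 3.58.1) and Python 3.11.15 (pandas 2.3.3, numpy 2.4.6, matplotlib 3.10.9), and the procedure was tested on simulated data.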

Additional observations from a re-analysis of the deposited data

How the results depend on the processing

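No paired analysis was possible because each medium had 1 array, and no array could be left out. Of 240 values of single members under the alternatives, 220 moved by less than the probe set scatter, 20 moved by more, and no 2-fold change reversed. Many of the 240 could not move, so 220 is not a measure of robustness. Genes with 1 probe set (Pth1r, Ramp2 and Ramp3) are unchanged by the probe set rules, and values above every floor are unchanged by the floors. Pth1r has 1 probe set well above each floor, so only the 4 alternatives of normalization, centring and offset could change it, and under them its rise in osteogenic medium was 1.07 to 1.18. From normal medium to osteogenic medium with DMSO, Lepr (1.08 to 2.23) and Ramp1 (1.42 to 2.23) stayed past 2-fold, though floors below their values could not change them. In osteogenic medium, Lepr ended below 2-fold with probe sets averaged (0.97) and with an offset of 32 (0.98), and Ramp1 with probe sets averaged (0.84) and with its second probe set (0.89), so that with averages 1 member, Pth1r, rose in place of 3. The median of the members with DMSO was then 0.11 in place of 0.00. At a threshold of 1.5-fold, 1 member fell in osteogenic medium (Ghr), 1 rose and 1 fell with DMSO (Ramp1 and Vdr), and 2 fell between normal medium and osteogenic medium with DMSO (Vdr and Ghr). Ghr with DMSO turned positive in 2 alternatives (up to 0.11). Signal close to the floor limits what can be seen for Lepr.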

Other observations

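A pair of further probe sets is annotated to both Ramp2 and its neighbour Vps25, an ESCRT subunit, and was outside the rule. Their log2 values were 7.51, 7.36 and 7.54 (1421051_s_at) and 8.29, 8.27 and 8.29 (1428621_a_at), in the order normal, osteogenic and osteogenic with DMSO. Their differences with DMSO, 0.19 and 0.02, stand beside 0.22 for the probe set of Ramp2 alone, and which of the genes they read cannot be told from these files.

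Of the 81 deposited values of the member probe sets, 50 (61.7%) were shared to the last digit with at least 1 other probe set of the same array. Over all probe sets the share was 70.7%, 75.1% and 74.3% on the 3 arrays. The value of the brightest Calcrl probe set in osteogenic medium with DMSO was held by 1838 others.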
